A study of Mus musculus with 13 samples.

Results

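The 10 genes described here, Gpr83, Izumo1r, Cd83, Ecm1, Penk, Rgs16, Swap70, Syt11, Capg and Plagl1, are members of the transcriptional signature by which regulatory T cells (Tregs) are recognised, most of them with products at the cell surface or in signalling. They were taken by gene name from the count tables, which list 22048 genes in common, and all 10 were found in each table and passed the filter on low counts at each stage. Messenger RNA was sequenced from sorted mouse CD4 T cells at 3 stages of the Treg lineage: pre-Tregs and de novo Tregs of the thymus, and Tregs of the spleen. At each stage wild-type cells (cRel+/+Foxp3rfp) were compared with cells lacking c-Rel (cRel-/-Foxp3rfp, here called knockout), all on the C57BL6/J strain, and every group, controls included, carried the red fluorescent Foxp3 reporter allele. There were 2 wild-type and 3 knockout libraries of pre-Tregs, 2 and 2 of de novo Tregs, and 2 and 2 of splenic Tregs, 13 in all. The genotype is given with no Cre or cell type restriction, so the mice rather than the Tregs alone are labelled as lacking c-Rel. No label used here gives the age of the mice or says which libraries came from separate animals, so the p-values reflect the spread among these libraries and nothing wider, and that spread may be technical.

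Tregs restrain immune responses and depend on the transcription factor Foxp3. In the thymus they arise from CD4 precursors that receive strong signals from the T cell receptor and from CD28. c-Rel, encoded by Rel, is an NF-kB subunit that these signals activate in T cells. It binds DNA at kB sites, which begin with a run of G and end with a run of C. Among the 10 genes, Gpr83 encodes a G protein-coupled receptor, Izumo1r a folate receptor-like surface protein (folate receptor 4, or Juno), Cd83 a surface protein of the immunoglobulin superfamily, Ecm1 a secreted matrix glycoprotein and Penk proenkephalin, the precursor of the enkephalin opioid peptides. Rgs16 shortens signalling by G proteins, Swap70 binds actin and Rac, Syt11 is a synaptotagmin of vesicle traffic, Capg caps actin filaments, and Plagl1 is a zinc finger transcription factor.

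Gpr83 and Izumo1r were neighbours on chromosome 9 in the deposited GRCm38 coordinates. Gpr83 lay at chr9:14860210-14870789 on the + strand and Izumo1r at chr9:14885814-14903949 on the - strand, with 15024 bases between their ends and no other listed protein-coding gene in the gap. Ecm1 lay at chr3:95734147-95739569 and Syt11 at chr3:88744700-88775164, both on the - strand. The other genes were at chr13:43785107-43803130 (Cd83, +), chr4:4133531-4138819 (Penk, -), chr1:153740349-153745468 (Rgs16, +), chr7:110221703-110283503 (Swap70, +), chr6:72544391-72562983 (Capg, +) and chr10:13060504-13131694 (Plagl1, +). Other listed genes overlap Ecm1 (Mir7014), Penk (A830012C17Rik), Plagl1 (Gm27741) and Rgs16 (Gm28513). In the pre-Treg table, the one that lists them, none of these had more than 9 counts in a library. Whether reads were counted by strand is not given in the sources used here, so reads from these overlaps could not be assigned with certainty.

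Start sites were matched by symbol to the RefSeq promoter table (GRCm38.p6) for 8 of the 10 genes, all but Cd83 and Penk. The 250 bases before the start are shown for 4 genes that rose (Gpr83, Izumo1r, Ecm1 and Capg) and 2 that fell (Swap70 and Rgs16) in knockout de novo Tregs, because c-Rel acts by binding DNA. Each runs 5′ to 3′ on the strand of its gene. Capitals mark matches on either strand to GGG followed by any 5 bases and CC, the loose form of a kB site, or to TATAAA. The windows are chr9:14859960-14860209 (+) for Gpr83, chr9:14903768-14904017 (-) for Izumo1r, chr3:95739570-95739819 (-) for Ecm1, chr6:72549397-72549646 (+) for Capg, chr7:110221453-110221702 (+) for Swap70 and chr1:153740103-153740352 (+) for Rgs16. The windows of Capg, Plagl1 and Syt11 lie inside the gene spans given above, and those of Izumo1r and Rgs16 overlap theirs. For these genes the start used is not the outermost start in the deposited coordinates.
Gpr83: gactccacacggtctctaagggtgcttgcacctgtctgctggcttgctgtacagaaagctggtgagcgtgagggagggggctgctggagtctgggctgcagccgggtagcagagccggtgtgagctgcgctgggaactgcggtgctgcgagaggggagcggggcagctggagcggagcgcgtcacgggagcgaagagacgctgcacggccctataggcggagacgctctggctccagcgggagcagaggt
Izumo1r: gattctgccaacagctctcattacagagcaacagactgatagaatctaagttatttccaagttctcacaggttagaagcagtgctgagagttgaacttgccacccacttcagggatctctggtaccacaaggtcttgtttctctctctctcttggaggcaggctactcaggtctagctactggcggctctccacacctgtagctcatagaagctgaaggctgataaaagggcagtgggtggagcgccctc
Ecm1: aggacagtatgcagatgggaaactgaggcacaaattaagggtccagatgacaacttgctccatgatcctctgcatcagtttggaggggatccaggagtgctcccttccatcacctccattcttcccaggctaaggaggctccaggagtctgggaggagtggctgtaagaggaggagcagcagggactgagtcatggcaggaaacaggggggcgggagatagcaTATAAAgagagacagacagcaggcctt
Capg: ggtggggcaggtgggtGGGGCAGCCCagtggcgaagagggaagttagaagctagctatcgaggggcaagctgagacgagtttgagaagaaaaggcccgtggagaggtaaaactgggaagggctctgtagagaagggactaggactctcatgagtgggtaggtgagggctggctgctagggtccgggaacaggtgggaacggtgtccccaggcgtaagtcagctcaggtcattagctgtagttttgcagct
Swap70: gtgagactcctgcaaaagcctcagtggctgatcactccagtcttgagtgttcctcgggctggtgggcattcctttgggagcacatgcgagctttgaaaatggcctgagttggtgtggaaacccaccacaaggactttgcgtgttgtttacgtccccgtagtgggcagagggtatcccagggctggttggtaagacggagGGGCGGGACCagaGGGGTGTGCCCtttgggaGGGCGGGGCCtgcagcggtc
Rgs16: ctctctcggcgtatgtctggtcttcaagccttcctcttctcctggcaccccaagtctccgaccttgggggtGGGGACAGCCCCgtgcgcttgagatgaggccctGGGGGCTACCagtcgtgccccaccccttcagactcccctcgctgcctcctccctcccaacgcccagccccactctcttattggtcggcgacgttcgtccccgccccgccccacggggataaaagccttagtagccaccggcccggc
The loose form was found in 4 of the 8 windows, against 45.8% of all 32851 promoter windows of that length. The 4 were those of Swap70 and Rgs16, which fell, and of Capg and Plagl1, which rose. Syt11, which fell, and Gpr83, Izumo1r and Ecm1, which rose, had no match to it. The windows of Plagl1 and Syt11 are not printed. The first loose match in Swap70 began 51 bases before the start and in Rgs16 179 bases before it. A stricter form contained in the loose one, GGG followed by any 2 bases and TTTCC, was in 1.41% of all windows and in 0 of these 8. TATAAA, searched on both strands, was in 12.4% of all windows and in 1 of the 8, that of Ecm1, 27 bases before the start. A match is a stretch of letters, and no binding was measured here.

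Values are given in CPM, the counts of a gene scaled to the library's counts in the shared genes, or, to compare genes with each other, in CPM per kilobase of deposited gene length (RPKM). Library totals were 13656304 to 29866696 counts at the pre-Treg, 25122095 to 28235996 at the de novo and 32291272 to 35114430 at the splenic stage, and 3 counts corresponded to 0.0854 to 0.228 CPM. Replicates were most alike in de novo Tregs, with a biological coefficient of variation of 0.0939, then in splenic Tregs (0.131), and least alike in pre-Tregs (0.284). All 10 genes were higher in wild-type pre-Treg replicate 2 than in replicate 1. Foxp3 was at 34.0 and 109 CPM in these 2 libraries, at 22.2, 51.3 and 49.1 CPM in the knockout pre-Tregs, and between 658 and 894 CPM in the other 8 libraries. The pan-T and Treg markers Cd3e, Cd4, Foxp3, Il2ra, Ikzf2, Ctla4 and Tnfrsf18 were detected in every group. Rel itself was at 108 and 107 CPM in wild-type and 61.6, 54.5 and 71.1 CPM in knockout pre-Tregs, at 99.1 and 96.7 against 87.3 and 94.6 CPM in de novo Tregs, and at 45.5 and 54.9 against 42.1 and 44.4 CPM in splenic Tregs. The counts cover the whole gene, so they do not check the deletion, and the genotypes are taken from the labels. Each stage had a count table of its own, and the splenic stage another tissue, so stage, table and, for the spleen, tissue cannot be told apart.

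In wild-type cells, 9 of the 10 genes were higher in de novo Tregs than in pre-Tregs, all but Rgs16, where 23.9% of the 12608 genes tested were called (11.5% higher and 12.5% lower). A gene is said to rise, fall or be called where its Benjamini-Hochberg adjusted p in edgeR's quasi-likelihood F-test, over all genes tested, was under 0.05. The steepest rise was that of the receptor Gpr83, from 71.9 and 103 CPM to 1177 and 1182 CPM, or 14.9-fold (log2 fold change 3.90, SE 0.34, adjusted p = 0.000187). Ecm1, the matrix glycoprotein, rose 9.38-fold from 117 and 156 CPM to 1141 and 1187 CPM (adjusted p = 0.000581). The actin capper Capg rose 5.72-fold, Cd83 4.86-fold, Izumo1r 4.68-fold, Penk 4.62-fold, Syt11 3.97-fold, Plagl1 2.56-fold and Swap70 1.94-fold, with adjusted p between 0.00031 and 0.0355. Rgs16 stood at 46.7 and 63.1 CPM in pre-Tregs and at 60.8 and 36.8 CPM in de novo Tregs, groups that overlap (log2 fold change -0.03, SE 0.37, adjusted p = 0.956). The calls of Penk and Plagl1 did not hold in every fit with 1 library left out. Penk was lost without any 1 of the de novo or wild-type pre-Treg libraries, with log2 fold changes from 1.70 to 3.02. Plagl1 was lost without any 1 of the de novo libraries, wild-type pre-Treg replicate 1 or knockout pre-Treg replicate 3 (0.81 to 1.37). Without either knockout de novo library the estimates stayed at 2.212 and 1.357, since those libraries enter this difference only through the shared fit.

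Per length, the order of the genes in wild-type de novo Tregs ran from Ecm1 at 462 ± 12.9 RPKM (SD, n = 2 here and below) to Plagl1 at 2.37 ± 0.021 RPKM. Between them came Izumo1r at 254 ± 19.7, Gpr83 at 232 ± 0.690, Capg at 208 ± 35.7, Cd83 at 164 ± 1.83, Penk at 149 ± 38.0, Swap70 at 86.6 ± 1.86, Syt11 at 21.8 ± 3.59 and Rgs16 at 20.8 ± 7.25 RPKM. Neighbours in that order from Gpr83 to Capg, from Cd83 to Penk and from Syt11 to Rgs16 lay within 1 SD of each other. In wild-type splenic Tregs Izumo1r was highest at 446 ± 0.236 RPKM, followed by Ecm1 at 281 ± 15.2, Capg at 247 ± 13.1, Cd83 at 163 ± 3.51, Penk at 150.02 ± 23.7 and Gpr83 at 145 ± 10.01 RPKM. Cd83 and Gpr83 lay within 1 SD of Penk. Swap70 at 49.7 ± 2.08, Syt11 at 21.5 ± 0.034, Rgs16 at 12.2 ± 1.40 and Plagl1 at 2.58 ± 0.101 RPKM closed the order. In wild-type pre-Tregs the range was narrower, from 59.6 ± 2.39 RPKM for Izumo1r and 54.1 ± 11.1 RPKM for Ecm1 to 1.02 ± 0.694 RPKM for Plagl1.

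From de novo to splenic wild-type Tregs, 1 of the genes rose and 4 fell, where 23.6% of 12532 genes were called (12% higher and 11.6% lower). Izumo1r, the folate receptor-like protein, rose from 557 and 622 CPM to 1034 and 1034 CPM (log2 fold change 0.78, SE 0.09, adjusted p = 0.000152). Gpr83 fell from 1177 and 1182 CPM to 776 and 704 CPM (-0.70, SE 0.09, adjusted p = 0.000258), and Ecm1 from 1141 and 1187 CPM to 680.5 and 735 CPM (-0.74, SE 0.08, adjusted p = 0.000114). Swap70 (-0.83, SE 0.09, adjusted p = 0.000181) and Rgs16 (-0.80, SE 0.24, adjusted p = 0.0323) were also lower in the spleen, the call of Rgs16 being lost without either wild-type splenic library, wild-type de novo replicate 1 or knockout de novo replicate 2 (adjusted p up to 0.308). Capg was called without wild-type de novo replicate 2 (adjusted p = 0.0218). The log2 differences of Capg (0.22), Cd83 (-0.04), Penk (-0.02), Plagl1 (0.10) and Syt11 (-0.05) were not called. In a fit of all 13 libraries together, Swap70 was the 1 call left of the 5.

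**Figure D1:**
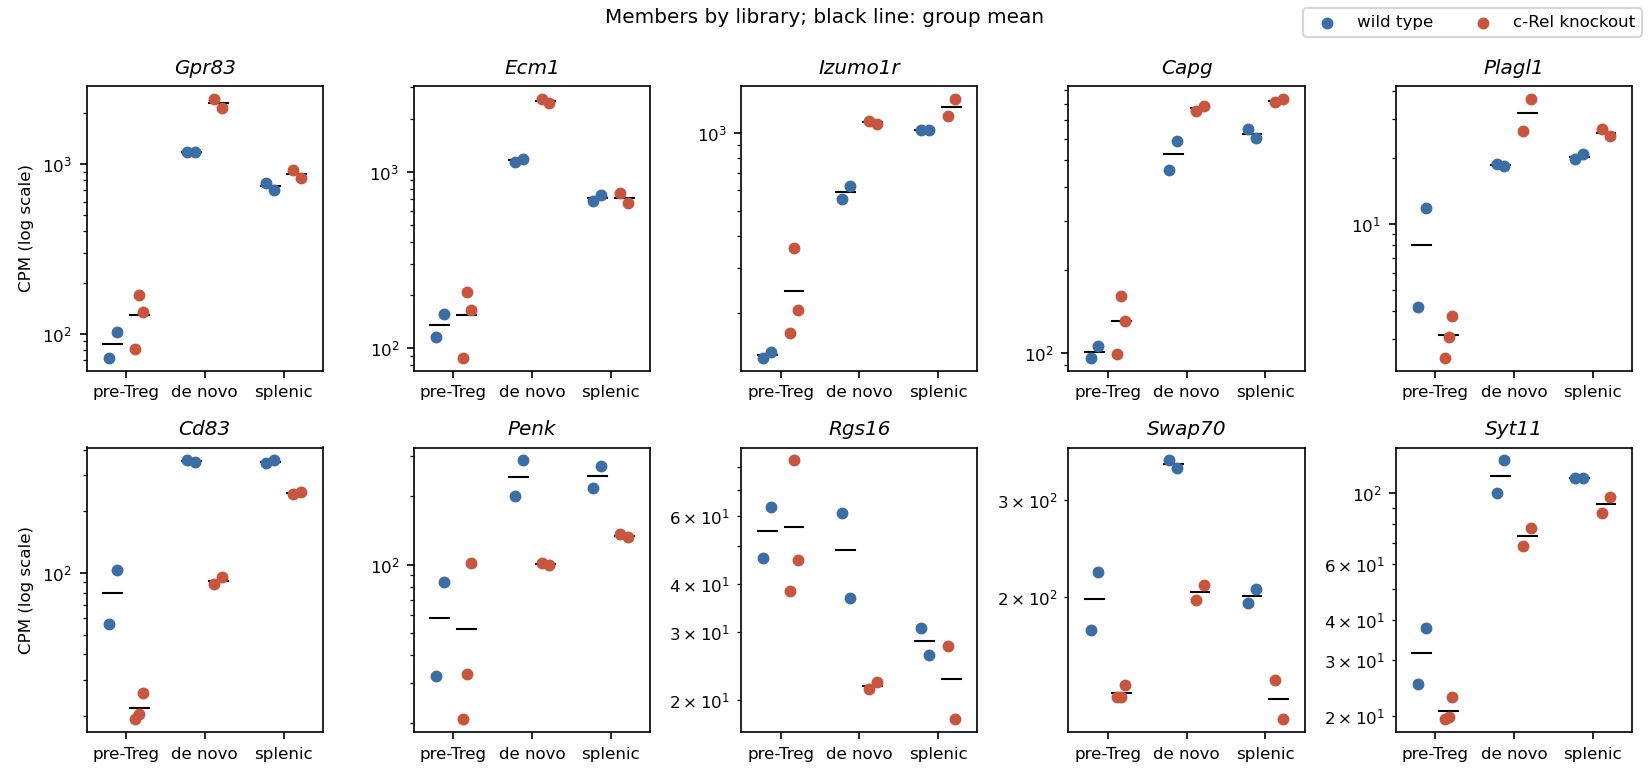
CPM of each of the 10 genes (log axis, 1 panel per gene) in every library at the 3 stages. Points are libraries, blue for wild type and red for knockout, and black lines are group means. In de novo Tregs the 2 red points lie above both blue points for Gpr83, Ecm1, Izumo1r, Capg and Plagl1, and below both for Cd83, Penk, Rgs16, Swap70 and Syt11.

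Loss of c-Rel changed all 10 genes in de novo Tregs, 5 upward and 5 downward, where 6.46% of the 11855 genes tested were called (2.92% higher and 3.54% lower). The genes that rose were Ecm1, Gpr83, Izumo1r, Capg and Plagl1, between 1.49-fold and 2.19-fold. Those that fell were Cd83, Penk, Rgs16, Swap70 and Syt11, between 1.54-fold and 3.80-fold. Foxp3 was at 793 and 786 CPM in wild-type and 709 and 812 CPM in knockout libraries (log2 fold change -0.04, SE 0.08, adjusted p = 0.87). In such bulk libraries, fewer cells of a type and less RNA per cell cannot be told apart. The 2 genotypes did not overlap for any of the 10 genes, as for 47.8% of all genes tested (20.7% higher and 27.1% lower in knockout). The median absolute log2 fold change was 0.94 over the 10 genes and 0.13 over all genes. The 10 genes and the lists read below were chosen with earlier results of these data known. Their contrast with all genes, here and in the other comparisons, is therefore a description and not a test of the set.

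Among the surface and secreted products, the receptor Gpr83 stood at 1177 and 1182 CPM in the wild-type and at 2412 and 2128 CPM in the knockout de novo Treg libraries. Group means were 1179.9 ± 3.52 and 2270.0 ± 201 CPM (SD, n = 2 and 2), a 1.94-fold rise (log2 fold change 0.96, SE 0.07, adjusted p = 1.4e-05). The 2 wild-type libraries lay much closer together than the 2 knockout libraries, and both knockout values were above both wild-type values. Its chromosomal neighbour Izumo1r stood at 557 and 622 CPM in wild type and 1121 and 1086 CPM in knockout, a 1.89-fold rise (0.92, SE 0.07, adjusted p = 2.29e-05). The next gene beyond Izumo1r, the channel gene Panx1, lay 101211 bases away and also rose (0.47, SE 0.07, adjusted p = 0.00261), while Mre11a, the neighbour 23086 bases from Gpr83 on the other side, was not called (-0.03, SE 0.10, adjusted p = 0.916).

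Ecm1 had the largest rise of the 10 genes. It was at 1141 and 1187 CPM in wild-type and 2584 and 2460.3 CPM in knockout de novo Tregs, or 1164 ± 32.5 against 2522 ± 87.2 CPM (SD, n = 2 and 2), which is 2.19-fold (log2 fold change 1.13, SE 0.06, adjusted p = 1.57e-06). Per length this took Ecm1 from 462 to 1000.4 RPKM, the highest level of the 10 genes in either genotype. Tars2, a mitochondrial tRNA synthetase gene on the same strand whose end lies 406 bases before the start of Ecm1, also rose (0.35, SE 0.08, adjusted p = 0.0239). Whether reads running between the 2 genes were shared was not tested.

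Cd83, best known as a marker of mature dendritic cells and also made by activated lymphocytes, had the largest fall. Its level was 355 and 349 CPM in wild-type and 88.0 and 95.2 CPM in knockout de novo Tregs, a 3.80-fold fall (log2 fold change -1.93, SE 0.08, adjusted p = 1.86e-07). It ranked 5 among the 11855 genes by p, and the groups were far apart compared with the spread within them. The opioid precursor Penk was at 200 and 288 CPM in wild type and at 101 and 99.2 CPM in knockout, a 2.41-fold fall (-1.27, SE 0.14, adjusted p = 0.000223). Its wild-type libraries differed from each other by almost as much as the lower of them differed from the knockouts. The sum of 16 myeloid and dendritic cell markers was 163 to 165 CPM in wild-type and 129 to 150 CPM in knockout de novo Tregs, with Clec9a at 0 in all 4 libraries and Itgax at 0 in the wild-type ones. Most of that sum was Cst3 alone, at 138 and 145 CPM in wild type and 132 and 121 CPM in knockout. Cst3 was not called (log2 fold change -0.15, SE 0.08, adjusted p = 0.389). Of the 10 of these markers tested, 0 rose and 1 fell (Zbtb46, -1.77), and their part in the fall of Cd83 was not tested.

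Of the genes acting inside the cell, Rgs16, Swap70 and Syt11 fell. Rgs16, which speeds the inactivation of G proteins, stood at 60.8 and 36.8 CPM in wild type and at 21.4 and 22.2 CPM in knockout de novo Tregs, a 2.21-fold fall (log2 fold change -1.14, SE 0.19, adjusted p = 0.00431). The knockout libraries were nearly equal and the wild-type pair was spread. Swap70 was at 354 and 344 CPM in wild type and 197 and 210.1 CPM in knockout, a 1.70-fold fall (-0.76, SE 0.08, adjusted p = 0.000121), with little spread in either group. The vesicle gene Syt11 was at 100.5 and 127 CPM against 68.5 and 78.1 CPM, a 1.54-fold fall (-0.62, SE 0.12, adjusted p = 0.00939), and its call was lost without wild-type replicate 2 (adjusted p = 0.0724).

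Of the other 2 intracellular products, the actin capper Capg was at 462 and 589 CPM in wild-type and 758 and 789 CPM in knockout de novo Tregs, a 1.49-fold rise (log2 fold change 0.57, SE 0.10, adjusted p = 0.00609). The transcription factor Plagl1 was the lowest of the 10, at 18.6 and 18.4 CPM in wild type and 26.6 and 37.0 CPM in knockout, a 1.73-fold rise (0.79, SE 0.16, adjusted p = 0.0117). Without knockout replicate 2, the higher of the pair, Plagl1 was no longer called (adjusted p = 0.0747). In a single fit of all 13 libraries, which shares the wider spread of the pre-Tregs, Cd83 and Swap70 were the 2 genes still called in de novo Tregs.

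**Figure D2:**
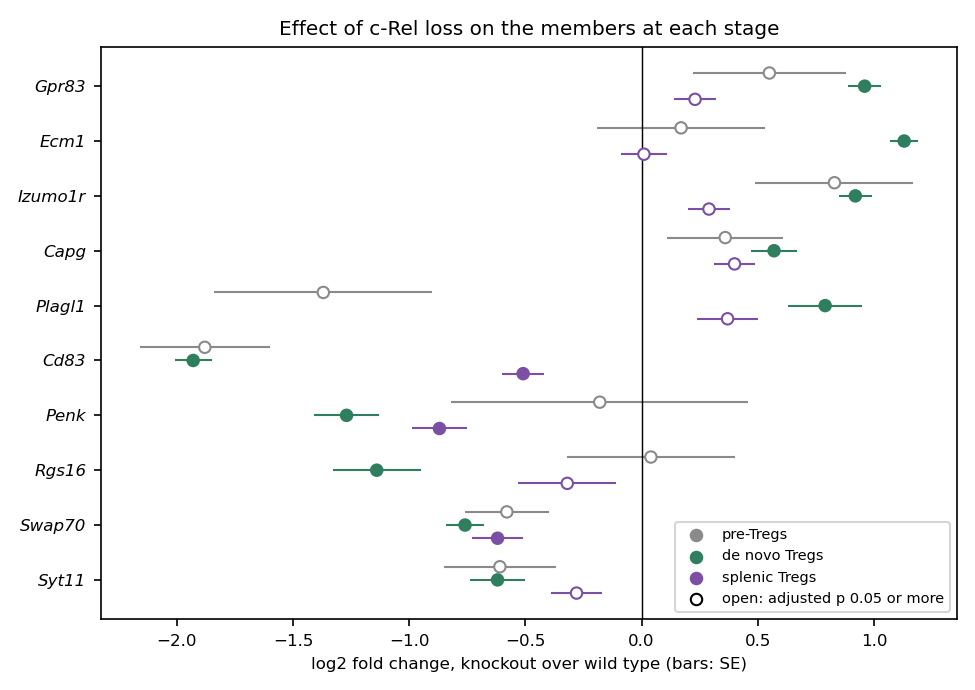
log2 fold change of knockout over wild type for the 10 genes in pre-Tregs, de novo Tregs and splenic Tregs. Points are edgeR estimates, bars their SE, and filled points passed an adjusted p of 0.05: all 10 in de novo Tregs, 3 in splenic Tregs (Cd83, Penk and Swap70), and 0 in pre-Tregs.

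In splenic Tregs 3 of the 10 genes fell without c-Rel and 0 rose, where 1.37% of the 12264 genes tested were called (0.612% higher and 0.758% lower). Penk fell 1.82-fold, from 218 and 273 CPM to 137 and 132 CPM (log2 fold change -0.87, SE 0.12, adjusted p = 0.0295). Swap70 fell 1.53-fold, from 195 and 206 CPM to 141 and 119.6 CPM (-0.62, SE 0.11, adjusted p = 0.0481). Cd83 fell 1.42-fold, from 344 and 355 CPM to 243 and 248 CPM (-0.51, SE 0.09, adjusted p = 0.0438). For each of these genes both knockout libraries lay below both wild-type libraries. The calls of Cd83 and Swap70 were lost without either wild-type library, and that of Penk without wild-type replicate 2. Such fits leave 1 wild-type library. Without wild-type replicates 1 and 2 in turn, the log2 fold changes stayed near the full values for Cd83 (-0.521 and -0.487) and Swap70 (-0.653 and -0.578). That of Penk was -0.698 without wild-type replicate 2. Without either knockout library more genes were called: Capg and Izumo1r in both cases, Rgs16 without replicate 1, and Gpr83, Plagl1 and Syt11 without replicate 2. None of the 3 was called in the fit of all 13 libraries.

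The other 7 genes were not called in splenic Tregs, although 8 of the 10 had an unadjusted p under 0.05, as had 1749 of the 12264 genes tested. Capg was nearest, at 649 and 602 CPM in wild type and 813 and 835 CPM in knockout (log2 fold change 0.40, SE 0.09, adjusted p = 0.0705). Gpr83 was at 776 and 704 CPM against 917 and 822 CPM (0.23, SE 0.09, adjusted p = 0.321), Izumo1r at 1034 and 1034 CPM against 1165 and 1359 CPM (0.29, SE 0.09, adjusted p = 0.214) and Plagl1 at 19.6 and 20.7 CPM against 26.9 and 25.0 CPM (0.37, SE 0.13, adjusted p = 0.26). In these 4 genes the knockout libraries lay above the wild-type ones without overlap. Syt11, with 112 and 112 CPM in wild type and 87.0 and 97.6 CPM in knockout, lay below without overlap (-0.28, SE 0.11, adjusted p = 0.306). Ecm1 overlapped, at 680.5 and 735 CPM against 761 and 663 CPM (0.01, SE 0.10, adjusted p = 0.976), and Rgs16 overlapped at 30.8 and 26.2 CPM against 27.7 and 17.8 CPM (-0.32, SE 0.21, adjusted p = 0.551). In all, 8 of the 10 genes did not overlap between genotypes, 4 above and 4 below, where 46.4% of all genes tested did not (22.9% above and 23.5% below).

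The genotype effect itself differed between splenic and de novo Tregs for 4 of the 10 genes, where 1.07% of 12532 genes did (0.567% with a higher and 0.503% with a lower effect in the spleen). Ecm1 went from a log2 fold change of 1.13 in de novo Tregs to 0.01 in splenic Tregs (difference -1.11, SE 0.11, adjusted p = 0.00167). Cd83 went from -1.93 to -0.51 (difference 1.43, SE 0.11, adjusted p = 0.000451), the gene of rank 2 by p in that test. Gpr83 went from 0.96 to 0.23 (difference -0.71, SE 0.12, adjusted p = 0.0261) and Izumo1r from 0.92 to 0.29 (difference -0.62, SE 0.12, adjusted p = 0.0408). In all 4 the effect was nearer 0 in the spleen. For Capg, Penk, Plagl1, Swap70, Rgs16 and Syt11 the difference was not called, with adjusted p between 0.433 and 0.857, which does not show that the effects were equal. Ecm1 and Cd83 were called with any 1 of the 8 libraries left out, with adjusted p up to 0.0204 and 0.00992. Gpr83 and Izumo1r were lost without any 1 of the de novo libraries or of the wild-type splenic libraries, and none of the 4 differences was called in the fit of all 13 libraries.

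**Figure D3:**
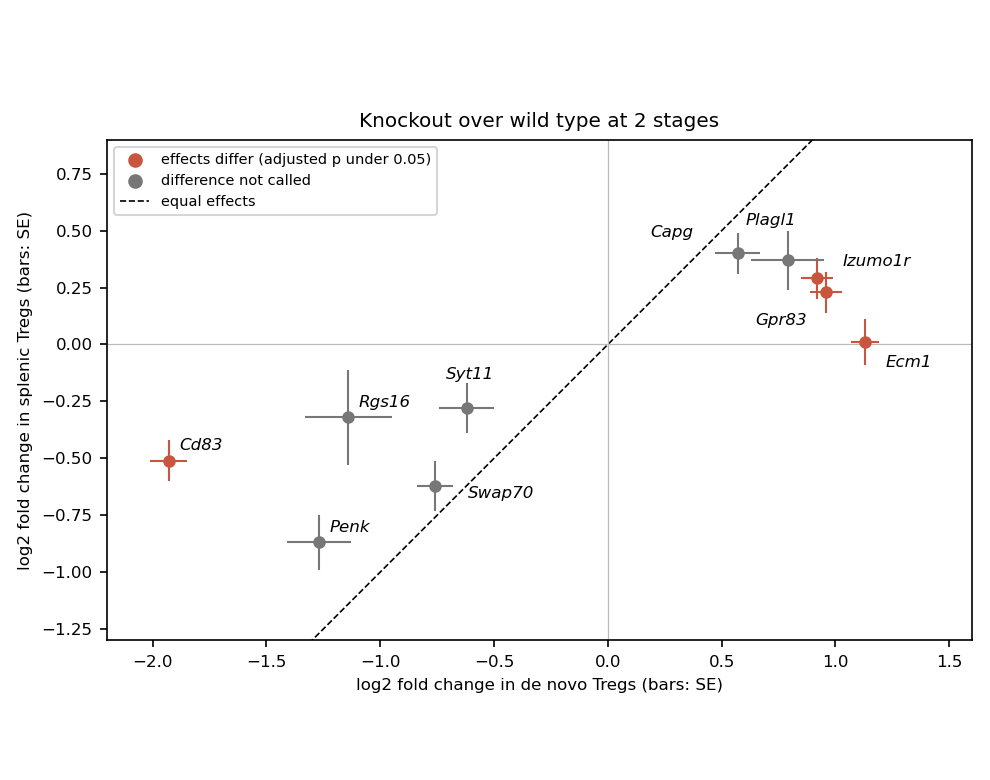
log2 fold change of knockout over wild type in de novo Tregs (x axis) and in splenic Tregs (y axis) for the 10 genes, with SE bars. The dashed line marks equal effects, and red points are the 4 genes whose effects differed between the stages: Ecm1, Gpr83, Izumo1r and Cd83.

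In pre-Tregs none of the 10 genes was called, as 0 of 14746 genes were in edgeR (a background of 0%), where 969 genes had an unadjusted p under 0.05. DESeq2 called 88 genes and limma-voom 0. Of the 10 genes, 5 had an unadjusted p under 0.05. Cd83 stood apart, at 56.4 and 103 CPM in wild type and 19.3, 20.5 and 26.04 CPM in knockout, and ranked 6 by p (log2 fold change -1.88, SE 0.28, adjusted p = 0.307). Its adjusted p was 5.99e-06 in DESeq2 and 0.0232 in edgeR without knockout replicate 2, the deepest library, whose description in the labels is worded unlike those of the others. It was 0.366 in limma-voom, and without each other library in turn it was between 0.251 and 0.999, with log2 fold changes from -2.24 to -1.40. Its log2 fold change was close to that in de novo Tregs, with a difference between the 2 stages of 0.01 (SE 0.32, adjusted p = 0.996), which does not show that the effects were equal.

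Other falls in pre-Tregs that did not overlap were those of Swap70, at 174 and 222 CPM against 131, 131 and 138 CPM (log2 fold change -0.58, SE 0.18, adjusted p = 0.72), Syt11, at 25.2 and 37.9 CPM against 19.5, 19.9 and 22.9 CPM (-0.61, SE 0.24, adjusted p = 0.72), and Plagl1, at 4.18 and 11.9 CPM against 2.45, 3.06 and 3.83 CPM (-1.37, SE 0.47, adjusted p = 0.72). Plagl1 thus lay below wild type in pre-Tregs and above it in de novo Tregs, and the difference of 2.22 between the effects had an SE of 0.54 and was not called (adjusted p = 0.335). Izumo1r lay above without overlap, at 134 and 142 CPM against 168, 359.9 and 207 CPM (0.83, SE 0.34, adjusted p = 0.72). Across all genes tested, 26.9% did not overlap in this comparison (15.3% above and 11.5% below).

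The remaining 5 genes overlapped in pre-Tregs. Gpr83 was at 71.9 and 103 CPM in wild type and 81.4, 168 and 134 CPM in knockout (log2 fold change 0.55, SE 0.33, adjusted p = 0.724), and Ecm1 at 117 and 156 CPM against 88.2, 208 and 164 CPM (0.17, SE 0.36, adjusted p = 0.887). Capg was at 95.8 and 106 CPM against 98.8, 161 and 130.1 CPM (0.36, SE 0.25, adjusted p = 0.728). Penk ranged from 32.4 to 84.2 CPM in wild type and from 20.8 to 102 CPM in knockout, the widest relative spread of the 10 in the knockout group (-0.18, SE 0.64, adjusted p = 0.936). Rgs16 was at 46.7 and 63.1 CPM against 38.4, 83.3 and 46.0 CPM (0.04, SE 0.36, adjusted p = 0.982). Knockout replicate 2 was the highest of the 3 knockout libraries for 5 of the 10 genes. No difference of the genotype effect between de novo Tregs and pre-Tregs was called for any of the 10, where 0.0238% of 12608 genes were (0.00793% with a higher and 0.0159% with a lower effect in de novo Tregs), and 3 of the 10 had an unadjusted p under 0.05, as had 1024 of the 12608.

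Over all 13 libraries, the gene whose log2 CPM followed that of Gpr83 most closely, among 9384 genes with at least 5 CPM on average, was Dbp (Pearson r = 0.993), with Ecm1 next (0.991). For Ecm1 these were Gpr83 (0.991) and its chromosomal neighbour Tars2 (0.989), and for Izumo1r Ppm1m (0.992). Capg was followed by Gata1 and Slc17a9 (0.994 each), Syt11 by Hopx (0.989), Swap70 by Ncf1 (0.985), Plagl1 by Rarg (0.977), Cd83 by Rasgef1b (0.973), Penk by Ccr6 (0.943) and Rgs16 by Litaf (0.884). These coefficients describe the libraries: the points share stages, count tables and genotypes. Rgs16 was negatively correlated with Izumo1r (-0.641).

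Around the 10 genes, a list of 28 other Treg signature genes was read the same way. In de novo Tregs 5 rose, 9 fell and 13 were not called of the 27 tested, with a median log2 fold change of -0.17 against 0 over all genes. The 4 with the smallest p all fell: St8sia6, a sialyltransferase (-1.42, SE 0.10, adjusted p = 1.11e-05), Itgae, the CD103 integrin chain (-2.18, SE 0.17, adjusted p = 1.58e-05), Fgl2, a secreted suppressive mediator (-2.48, SE 0.20, adjusted p = 2.03e-05), and the inhibitory receptor Tigit (-2.48, SE 0.25, adjusted p = 0.000147). Those that rose were Socs2 (1.15), Il2ra (0.44), Ctla4 (0.43), Cish (0.41) and Il2rb (0.39), and both the 10 and the 28 genes therefore held changes in both directions. In splenic Tregs 2 of the 28 rose (Socs2 0.87 and Ctla4 0.86) and 2 fell (Ikzf4 -0.58 and St8sia6 -0.55), and in pre-Tregs 0 of 26 tested were called.

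**Figure D4:**
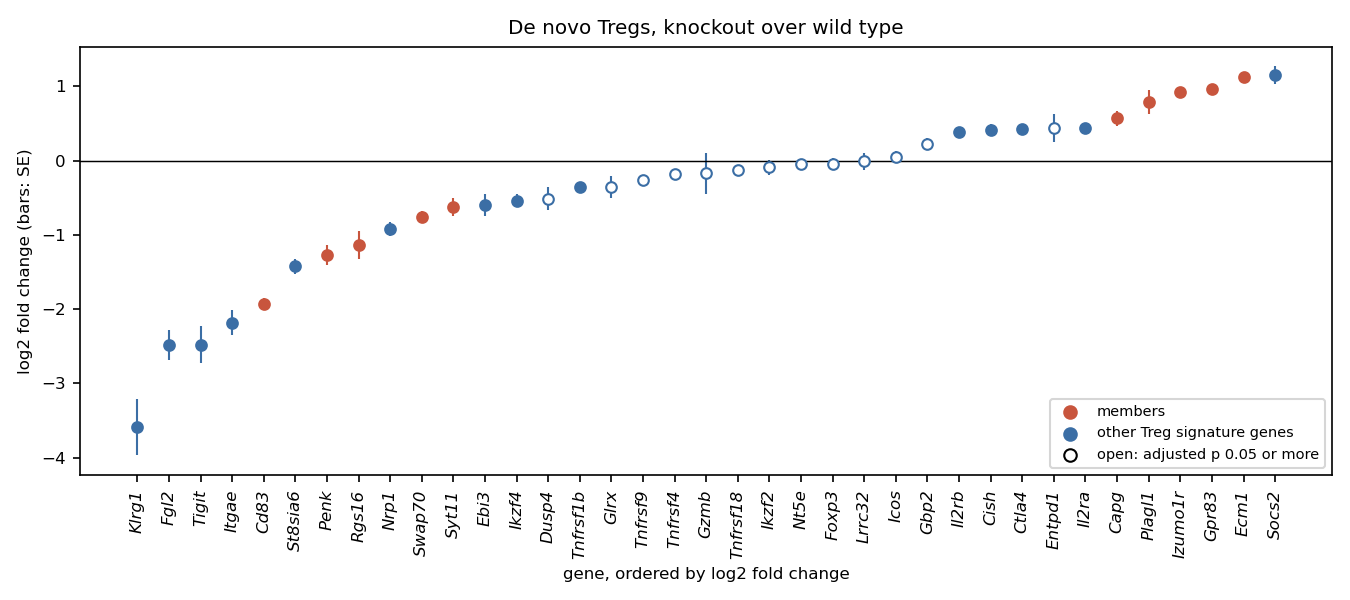
log2 fold change of knockout over wild type in de novo Tregs for the 10 genes and for the other Treg signature genes tested. Points are edgeR estimates and bars their SE, with called genes filled. Of the 10 genes 5 rose and 5 fell, and of the 27 others 5 rose and 9 fell.

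Relatives and partners of the 10 genes were read the same way. Of 8 other RGS genes tested in de novo Tregs, Rgs11 rose from 41.2 and 45.2 CPM to 101 and 104 CPM (log2 fold change 1.26, SE 0.09, adjusted p = 1.38e-05), Rgs1 rose (0.40, SE 0.08, adjusted p = 0.0117) and Rgs2 fell like Rgs16 (-0.94, SE 0.11, adjusted p = 0.00045). None of the 8 was called in splenic Tregs. Beside Capg, of 5 gelsolin family genes tested Gsn rose (0.47, SE 0.09, adjusted p = 0.0117) and Scin fell (-2.86, SE 0.22, adjusted p = 1.58e-05). Beside Swap70, its closest relative Def6 was not called (0.01, SE 0.07, adjusted p = 0.954), and of 5 family members and partners tested Irf4, a transcription factor known as a partner of Def6, was the 1 that changed, from 37.8 and 36.4 CPM to 16.04 and 19.2 CPM (-1.05, SE 0.13, adjusted p = 0.000468). Plagl2, the relative of Plagl1, fell where Plagl1 rose, from 71.4 and 66.2 CPM to 36.7 and 42.5 CPM (-0.78, SE 0.11, adjusted p = 0.00125).

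For Cd83, which is known to protect MHC class II and CD86 at the cell surface from ubiquitin ligases of the March family, 1 of 4 partners tested rose in de novo Tregs and 0 fell. It was Cd74, the invariant chain, at 170 and 140.0 CPM in wild type and 389 and 375 CPM in knockout (log2 fold change 1.32, SE 0.09, adjusted p = 1.1e-05). Cd74 also rose in splenic Tregs, from 191 and 222 CPM to 533 and 422 CPM (1.21, SE 0.13, adjusted p = 0.013). The sum of 10 B and plasma cell markers was 33.2 to 35.9 CPM in wild-type and 35.3 to 40.9 CPM in knockout de novo Tregs, and 44.2 to 55.9 against 64.1 to 107 CPM in splenic Tregs, and its part in the rise of Cd74 was not tested. Of the enkephalin processing enzymes and opioid receptors, 3 of 7 were tested in de novo Tregs and 0 were called, and the receptors Oprd1 and Oprk1 were at 0 in all 4 libraries. Syt11 was the prominent synaptotagmin: 15 others summed to between 2.82 and 5.57 CPM in the de novo libraries, and 0 of the 4 tested were called. The folate receptor relatives of Izumo1r, Folr1 and Folr2, and its sperm ligand Izumo1 summed to at most 1.14 CPM in any library, with Folr1 at 0 in all.

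Markers of other cells were read for all 10 genes. In de novo Tregs the sum of 8 CD8 T and NK cell markers was 43.8 to 47.6 CPM in wild type and 33.7 to 45.5 CPM in knockout, with 1 of the 7 tested lower (Eomes, -1.25, SE 0.29, adjusted p = 0.0245) and 0 higher. In the same cells 9 thymic stroma markers summed to 231 to 232 against 308 to 309 CPM, with Foxn1, Psmb11, Pdgfra and Krt5 at 0 in all 4 libraries. Most of that sum was Pecam1 alone, at 212 and 215 CPM in wild type and 279 and 278 CPM in knockout, so it does not measure stroma. Of the 4 stroma markers tested, Epcam (0.80) and Pecam1 (0.40) rose. In splenic Tregs the myeloid and dendritic sum was 189 to 220 CPM in wild type and 141 to 159 CPM in knockout. There too most of it was Cst3, at 138 and 138 CPM in wild type and 122 and 132 CPM in knockout. The part of these cells in the changes of the 10 genes was not tested. Of red cell genes, the haemoglobin gene Hbb-bs was at 56.6 and 1.10 CPM in the wild-type and at 0.159 and 0.260 CPM in the knockout de novo Tregs, and it fell (-7.05, SE 1.57, adjusted p = 0.0216), as did Hba-a1 (-9.33, SE 1.87, adjusted p = 0.0127). The part of red cells in the changes of the 10 genes was not tested.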

How the data were processed

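The deposited values used are the authors' raw counts of reads for each gene, not normalized, and the deposited gene length in bases of the pre-Treg table. Tools in the submitters' processing notes are STAR 2.5.2, Subread 1.5.2, featureCounts, Picard 2.9.0 and limma, and the build is GRCm38. Annotation release and strandedness: not given in the sources used here. All 13 per-sample columns were used and 0 left out. Each library's group and number come from its title.

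Counts were tested in R 4.3.3 with edgeR 4.0.16 (quasi-likelihood F-test after TMM scaling and filterByExpr, min.count 10 and min.total.count 15), with Benjamini-Hochberg adjustment over all genes tested and calls at an adjusted p under 0.05. Each stage was fitted alone for genotype. Differences between 2 stages used those 2 stages' libraries and the genes in both tables. SE is the log2 fold change divided by the square root of F. Log2 CPM for the correlations used a prior count of 2. Alternatives were RLE scaling, no filter, a replicate block, a fit of all 13 libraries, DESeq2 1.42.0, limma-voom (limma 3.58.1), the genes in all tables alone, and leaving out each library. The tests were run on simulated counts with known changes. Those counts were drawn with the spread estimated from these libraries, so this check cannot show whether that spread is right.

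All 10 genes are named in every comparison whatever their p. Rel was read in every library, up to 4 called genes of each related list were named by p, and others named beside a result were chosen after their values were seen. The members and lists were chosen with earlier results of these data known. Replicate numbers were not treated as pairs: same-numbered libraries did not deviate together. The floor of 3 counts covers counting error only. One marker and the sum of its list are not reported here.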

Additional observations from a re-analysis of the deposited data

Results flagged for a closer look

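For 4 genes the effect of c-Rel loss was tested as different between splenic and de novo Tregs. The log2 fold change of knockout over wild type was lower in splenic Tregs by a difference of -1.11 for Ecm1 (adjusted p = 0.00167), -0.71 for Gpr83 (adjusted p = 0.0261) and -0.62 for Izumo1r (adjusted p = 0.0408), and higher by 1.43 for Cd83 (adjusted p = 0.000451), in edgeR's interaction test over 8 libraries. With 2 or 3 libraries per group, no group was large enough to be searched for outlying libraries.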

How the results depend on the processing

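With 2 or 3 libraries a group and a wide spread in pre-Tregs, calls there and in splenic Tregs moved with the settings, and the cause was not tested. In pre-Tregs, 0 genes called became 14 with no filter, 77 with a replicate block, 71 in the fit of all 13 libraries and 88 in DESeq2, and in each of these 1 of the 10 genes, Cd83, was called. Leaving out single libraries gave 0 to 64 genes and 0 to 1 of the 10, the 64 without knockout replicate 2. In de novo Tregs, 766 genes and all 10 became 100 and 2 in the fit of all 13 libraries, and 527 to 761 and 9 to 10 without single libraries. In splenic Tregs, 168 genes became 475 with no filter, 361 with a replicate block, 60 in the fit of all 13 and 526 in DESeq2. Of the 10 genes, 0 were called in the fit of all 13, and 4, with Capg added, with no filter and in DESeq2. Single libraries left out gave 220 to 2508 genes and 0 to 8 of the 10: wild-type replicate 1 left out gave 1 and replicate 2 gave 0, and knockout replicate 1 left out gave 6 and replicate 2 gave 8. Crossing the replicate numbers of the splenic block, tried after seeing the data, gave 803 genes and 4 of the 10.

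For the difference between the effects in de novo Tregs and pre-Tregs, 3 genes became 12 with no filter, 0 with the replicate block, 11 in the fit of all 13 and 0 to 74 without single libraries. For splenic against de novo Tregs, 134 became 381 with no filter, 1 in the fit of all 13, with 0 of the 10 genes, and 21 to 462 without single libraries, with 2 to 4 of the 10. The replicate block cost Izumo1r there (adjusted p = 0.0682). Between wild-type de novo Tregs and pre-Tregs, 3016 genes became 1549 with the replicate block and 512 to 5927 without single libraries, with 7 to 9 of the 10. Between wild-type splenic and de novo Tregs, 2961 became 1529 with the replicate block, which cost Rgs16 (adjusted p = 0.0702), 973 in the fit of all 13, with 1 of the 10, and 1350 to 3951 without single libraries, with 4 to 6 of the 10.

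Signs turned only for differences that were not called above. These were Rgs16 in pre-Tregs with limma-voom (-0.025), and the Cd83 difference between de novo Tregs and pre-Tregs with RLE scaling (-0.016) and in the fit of all 13 (-0.037). With the replicate block they were 3 wild-type stage differences. Rgs16 turned between de novo Tregs and pre-Tregs (0.51), and Penk (0.056) and Syt11 (0.061) between splenic and de novo Tregs. Without single libraries, log2 values crossed 0 in pre-Tregs for Ecm1 (-0.15 to 0.46), Penk (-1.10 to 0.64) and Rgs16 (-0.42 to 0.25), and in splenic Tregs for Ecm1 (-0.083 to 0.10). The difference of the genotype effect between de novo Tregs and pre-Tregs did so for Izumo1r (-0.074 to 0.54), Cd83 (-0.45 to 0.36), Swap70 (-0.27 to 0.02) and Syt11 (-0.23 to 0.30). Wild-type stage differences did so for Rgs16 between de novo Tregs and pre-Tregs (-0.44 to 0.29). Between splenic and de novo Tregs they did so for Penk (-0.26 to 0.27) and Syt11 (-0.21 to 0.13). Correlations of same-numbered libraries were -0.168 and -0.158 in pre-Tregs, -0.011 in de novo and -0.113 in splenic Tregs.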
